A study of Mus musculus with 15 samples.

Results

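A set of 10 genes that remodel or organise the extracellular matrix was followed across all 15 libraries of the series: the matrix metalloproteinases Mmp2 and Mmp14, the tissue inhibitors of metalloproteinases Timp1, Timp2 and Timp3, the thrombospondins Thbs1 and Thbs2, and Sparc, Postn (periostin) and Fn1 (fibronectin). They were chosen by name, as a list of 10 symbols, from the 31017 gene symbols in every count table, and all 10 were found. This choice, and that of the gene lists below, was made with earlier results of these data known. Fibroblast input detected 6 of them, 1 Dnmt1 RIP library 9 and the other libraries all 10.

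Metalloproteinases are zinc enzymes that cut collagens and other matrix proteins outside the cell. Mmp14 sits in the cell membrane and activates the secreted Mmp2 precursor, a step in which Timp2 takes part as a bridge between the 2 enzymes, while the TIMPs otherwise block metalloproteinases. Matricellular proteins such as thrombospondins, Sparc and periostin are secreted into the matrix and alter how cells attach and respond to it, and fibronectin is a structural glycoprotein that links cells to collagen. Fibroblasts are a main source of most of these proteins, and in brain Sparc is made by glia and vessels.

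The series examined RNA pulled down by antibodies from mice with a dominant mutation in Dnmt1, the enzyme that copies CpG methylation to new DNA strands. Tail fibroblast lines of WT, Het and Hom littermates were fixed with 1% formaldehyde and precipitated with anti-Dnmt1 antibody (Dnmt1 RIP, 2 libraries per genotype); messenger RNA was precipitated with anti-5-methylcytosine antibody (m5C RIP) from fibroblasts (2 WT, 1 Het, 1 Hom library) and cortex (1 library per genotype). A single library for fibroblast and another for cortex are titled input, although their antibody label is anti-IgG antibody. The sources used here give neither strain, age and base change nor the number of animals or cultures behind a library, so the spread between 2 libraries of a genotype may be technical, and p-values measure no more than that spread. Neither input belongs to a genotype, so more RNA bound and more RNA present cannot be told apart, nor can fewer cells of a type and less RNA per cell.

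Depth was low and uneven. Gene counts ran from 217173 to 1362757 in the Dnmt1 RIP, from 725824 to 2163814 in fibroblast m5C RIP and from 1310590 to 2408694 in cortex m5C RIP, with 228852 in fibroblast input and 4913482 in cortex input. Levels are CPM, counts scaled to 1000000 gene counts per library. Lars2, Gm42418, Gm26917 and Gm10800 together took 5.70 to 63.5% of a Dnmt1 RIP library and 58.4% of fibroblast input, so sums and levels per kb are given without these 4 genes. Fibroblast m5C WT library 1 stands apart: it holds at least as many counts as the Hom library in every 1 of the 31017 genes, equals it in 7163 of the 19511 genes detected in Hom, and would consist to 74.4% of it, so calls and named estimates that rest on it are also given without it or with the Hom counts taken out. Summed fibroblast markers (10 genes, among them Col1a1 and Col1a2) lay at 26496 to 33799 CPM in fibroblast m5C RIP, 952 to 22456 in the Dnmt1 RIP, 2166 in fibroblast input and 541 to 642 in cortex m5C RIP. Summed neuron markers (10 genes) lay at 9349 to 9918 CPM in cortex m5C RIP and 566 to 1160 in fibroblast m5C RIP. They lay at 3468 to 5704 CPM in the Dnmt1 RIP and 2755 in fibroblast input, although both are labelled fibroblast. Summed macrophage markers (10 genes) lay at 3298 to 5645 CPM in fibroblast m5C RIP, 157 to 178 in cortex m5C RIP and 181 to 2260 in the Dnmt1 RIP, so they too were higher in fibroblast m5C RIP than in the other RIP libraries. Their part in the results was not tested.

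The 10 genes made up 0.883 to 1.59% of all gene counts in fibroblast m5C RIP, 0.0300 to 0.492% in the Dnmt1 RIP and 0.0761 to 0.0954% in cortex m5C RIP. Cortex input held 0.0785% (95% exact binomial interval 0.0761 to 0.0811) and fibroblast input 0.0586% (0.0491 to 0.0693). The fibroblast m5C libraries thus stood above every other library, and all 6 Dnmt1 RIP libraries lay below them.

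**Figure D1:**
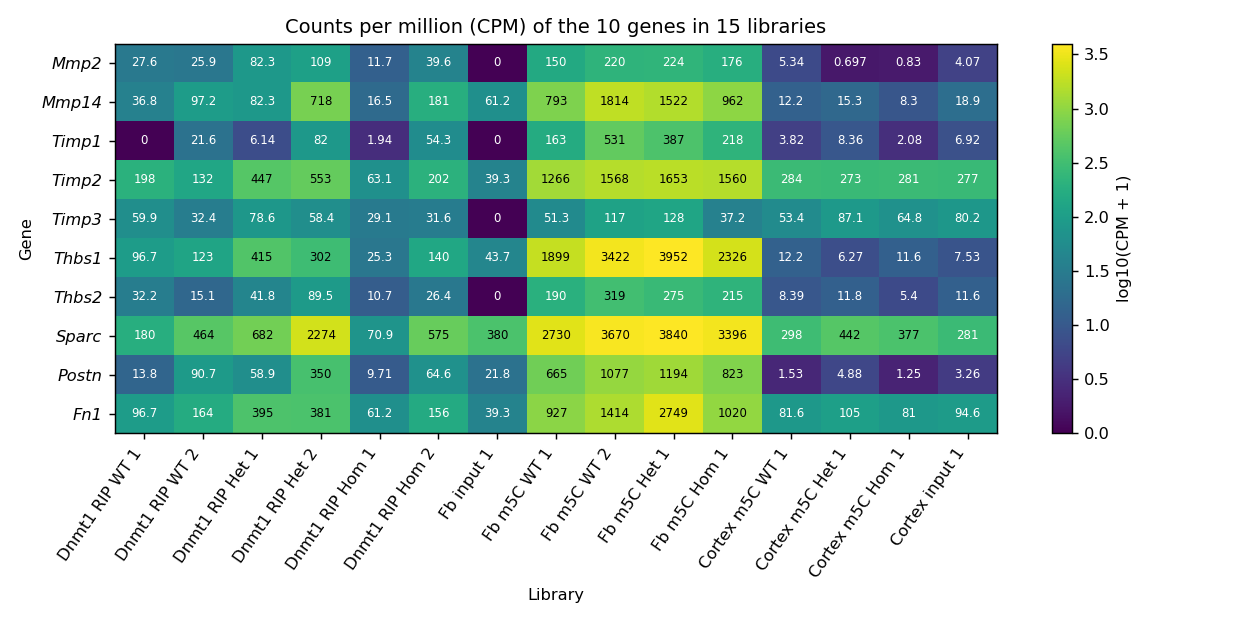
Heat map of CPM for the 10 genes (rows) in the 15 libraries (columns; Fb, fibroblast), with the CPM printed in each cell and the colour on a log10(CPM + 1) scale. The 4 fibroblast m5C columns are brightest in most rows, from 37.2 CPM (Timp3, Hom) to 3952 CPM (Thbs1, Het), and Timp3 is the row that changes least outside fibroblast input.

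Levels per kb of exon, which can be compared between genes, put Sparc first with each antibody and tissue. In fibroblast m5C RIP Sparc averaged 975 ± 80.0 CPM per kb (SD, n = 4), followed by Thbs1 at 514 ± 145, Timp2 at 421 ± 19.5 and Timp1 at 392 ± 189. The ranges of Thbs1, Timp2 and Timp1 overlap, so their order is not separated by the spread. Mmp14 (230 ± 76.8), Fn1 (140 ± 71.6), Postn (117 ± 23.9), Mmp2 (61.8 ± 8.27) and Thbs2 (38.6 ± 7.42) came next and Timp3 was last at 11.0 ± 5.65. In cortex m5C RIP Sparc (103 ± 19.0 CPM per kb, n = 3) and Timp2 (75.5 ± 2.16) stood above Timp3 (8.83 ± 2.14) and Fn1 (8.02 ± 1.16), and Postn was last at 0.308 ± 0.242. Timp3 therefore ranked 3 of 10 in cortex, where its range overlaps that of Fn1, and 10 of 10 in fibroblasts. In the Dnmt1 RIP the order opened with Sparc (221 ± 217 CPM per kb, n = 6) and Timp2 (85.4 ± 52.9) and closed with Timp3 (8.09 ± 3.15) and Thbs2 (6.37 ± 3.93), with an SD near or above the mean for Sparc and for Mmp14 (36.3 ± 46.0), Timp1 (36.0 ± 39.8) and Postn (13.2 ± 15.1).

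Whether m5C RIP recovered these transcripts differently in fibroblasts and cortex was tested over 4 and 3 libraries. In fibroblasts 9 of the 10 genes were higher (edgeR quasi-likelihood test, p adjusted by Benjamini-Hochberg over 14193 genes), where 33% of all genes tested were called higher and 30.9% lower. The median log2 fold change of the 10 was 5.66 against 0.06 for all genes. Total counts alone in place of TMM factors moved the median of all genes by -0.14, and the same number of members was called.

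Both metalloproteinases were near absent from cortex. Mmp2 (chr8:92827291-92853420, plus strand, mm10, GENCODE M21), the gelatinase that cuts collagen IV and denatured collagen, stood at 150 and 220.1 (WT), 224 (Het) and 176 (Hom) CPM in fibroblasts, against 5.34 (WT), 0.697 (Het) and 0.830 (Hom) in cortex, the lowest from a single count. Its log2 fold change was 6.65 ± 0.39 (SE). Mmp14 (chr14:54431612-54445364, plus strand) stood at 793 and 1814 (WT), 1522 (Het) and 962 (Hom) CPM in fibroblasts, and at 12.2, 15.3 and 8.30 CPM in cortex, a log2 fold change of 6.88 ± 0.34. The lowest fibroblast library lay far above the highest cortex library for both enzymes.

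The 3 inhibitors, which lie on different chromosomes, differed from one another. Timp1 (chrX:20870166-20874735, plus strand), the inducible secreted inhibitor, had 163 and 531 (WT), 387 (Het) and 218 (Hom) CPM in fibroblasts and 3.82, 8.36 and 2.08 CPM in cortex (log2 fold change 6.27 ± 0.45). Timp2 (chr11:118301069-118355740, minus strand) was the steadiest across libraries of a tissue, at 1266, 1568, 1653 and 1560 CPM in fibroblasts (WT, WT, Het, Hom) and 284, 273 and 281 in cortex (2.60 ± 0.20). Timp3 (chr10:86300372-86349506, plus strand), which binds to the matrix itself, was at 51.3 and 117 (WT), 128 (Het) and 37.2 (Hom) CPM in fibroblasts and at 53.4, 87.1 and 64.8 CPM in cortex. Its tissues overlap, and it was the 1 member not called (0.41 ± 0.30, adjusted p = 0.25). That call rests on single libraries: Timp3 was called higher in fibroblasts without fibroblast m5C WT library 1 (0.53), without the Hom fibroblast library (0.79) and without the Hom cortex library (0.78).

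The promoters of the 3 inhibitors are shown because Dnmt1 acts on CpG sites and these genes hold very different numbers of them. Sequences are from RefSeq (GRCm38.p6), 250 bases before to 50 after the start, 5′ to 3′ on the gene's strand, with each CpG in capitals. They lie at chrX:20869916-20870215 (plus strand), chr11:118355362-118355661 (minus strand) and chr10:86300162-86300461 (plus strand).
Timp1: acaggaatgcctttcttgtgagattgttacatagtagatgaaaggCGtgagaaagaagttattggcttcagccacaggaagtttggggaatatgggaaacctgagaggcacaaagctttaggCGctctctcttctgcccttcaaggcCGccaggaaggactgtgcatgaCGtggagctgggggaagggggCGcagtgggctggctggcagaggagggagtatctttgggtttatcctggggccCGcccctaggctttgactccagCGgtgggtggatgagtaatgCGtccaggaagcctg
Timp2: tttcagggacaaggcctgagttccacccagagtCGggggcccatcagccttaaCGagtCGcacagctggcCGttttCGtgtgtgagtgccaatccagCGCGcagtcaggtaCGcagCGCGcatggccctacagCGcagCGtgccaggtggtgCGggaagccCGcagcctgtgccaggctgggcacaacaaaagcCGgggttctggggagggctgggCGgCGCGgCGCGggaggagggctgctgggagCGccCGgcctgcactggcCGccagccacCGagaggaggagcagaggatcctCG
Timp3: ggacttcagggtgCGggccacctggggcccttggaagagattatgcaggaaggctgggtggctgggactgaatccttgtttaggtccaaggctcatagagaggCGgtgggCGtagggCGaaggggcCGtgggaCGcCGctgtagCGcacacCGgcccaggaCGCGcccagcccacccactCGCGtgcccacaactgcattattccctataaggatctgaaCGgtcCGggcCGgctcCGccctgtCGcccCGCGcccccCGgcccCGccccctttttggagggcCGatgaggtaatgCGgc
Timp1 holds 8 CpG, near the median of 7 over 32851 promoters of that length, and Timp2 and Timp3 hold 25 and 24. Of the 10 genes 7 had a promoter entry; Mmp14 holds 10 CpG, Sparc and Thbs2 hold 4 each and the 2 Postn entries hold 4 and 5. Motifs were searched on both strands. The letters GGGCGG occur in the Mmp14 and Timp2 windows and, on the opposite strand, in those of Timp1 and Timp3 (35.7% of all promoters). The letters TATAAA occur in 1 Postn window and, on the opposite strand, in that of Thbs2 (13.6% of all promoters), and TGACTCA in none of the 7 (5.20%). These matches describe the letters alone. No library of the series measures methylation of DNA, and a count of CpG was not set against any level.

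A pair of the inhibitors lies inside synapsin genes, which matters where neuron transcripts are present. Timp1 lies within Syn1, on the opposite strand, with 0 shared exon bases, and Timp3 within Syn3, on the opposite strand, with 1733 shared exon bases (21.3% of the Timp3 exons). The sources used here do not say whether counting used strand, so reads in the shared Timp3 bases cannot be assigned to a strand. Syn1, a neuron gene, was lower in fibroblast than in cortex m5C RIP (log2 fold change -3.09 ± 0.24) and so was Syn3 (-1.63 ± 0.31). Syn3 was at 32.4 to 34.2 CPM in the cortex m5C libraries and 7.86 to 13.3 CPM in the fibroblast ones, against 53.4 to 87.1 and 37.2 to 128 for Timp3. Cep295nl, which overlaps Timp2 on the same strand without sharing exon bases, had at most 13 counts in an m5C library.

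Thrombospondins are multimeric matrix proteins that bind cells, proteases and growth factors. Thbs1 (chr2:118111876-118127133, plus strand) had the second largest tissue difference among the members: 1899 and 3422 (WT), 3952 (Het) and 2326 (Hom) CPM in fibroblasts against 12.2, 6.27 and 11.6 CPM in cortex (8.25 ± 0.39). Thbs2 (chr17:14665500-14694235, minus strand) stood at 189.6, 319, 275 and 215 CPM against 8.39, 11.8 and 5.40 (5.04 ± 0.28). As a share of the counts of the pair, Thbs1 took 90.9 to 93.5% in fibroblast m5C RIP and 34.6 to 68.3% in cortex, where few counts of either were found.

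Periostin (Postn, chr3:54361109-54391037, plus strand), a matricellular protein of connective tissue, had the largest difference of the 10: 665 and 1077 (WT), 1194 (Het) and 823 (Hom) CPM in fibroblasts against 2, 7 and 3 counts in the WT, Het and Hom cortex libraries (8.76 ± 0.35). Fn1 (chr1:71585520-71653200, minus strand) stood at 927, 1414, 2749 and 1019.5 CPM in fibroblasts and 81.6, 105 and 81.0 in cortex (4.20 ± 0.27). Sparc (chr11:55394500-55423183, minus strand), a collagen-binding glycoprotein, stood at 2730, 3670, 3840 and 3396 CPM against 298, 442 and 377 (3.40 ± 0.22). Sparc and Timp2 were thus the most abundant members in cortex and had the smallest differences among the 9 that were called, all with adjusted p of 3.48e-08 or less. With the Hom counts taken out of fibroblast m5C WT library 1, the same 9 were called.

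**Figure D2:**
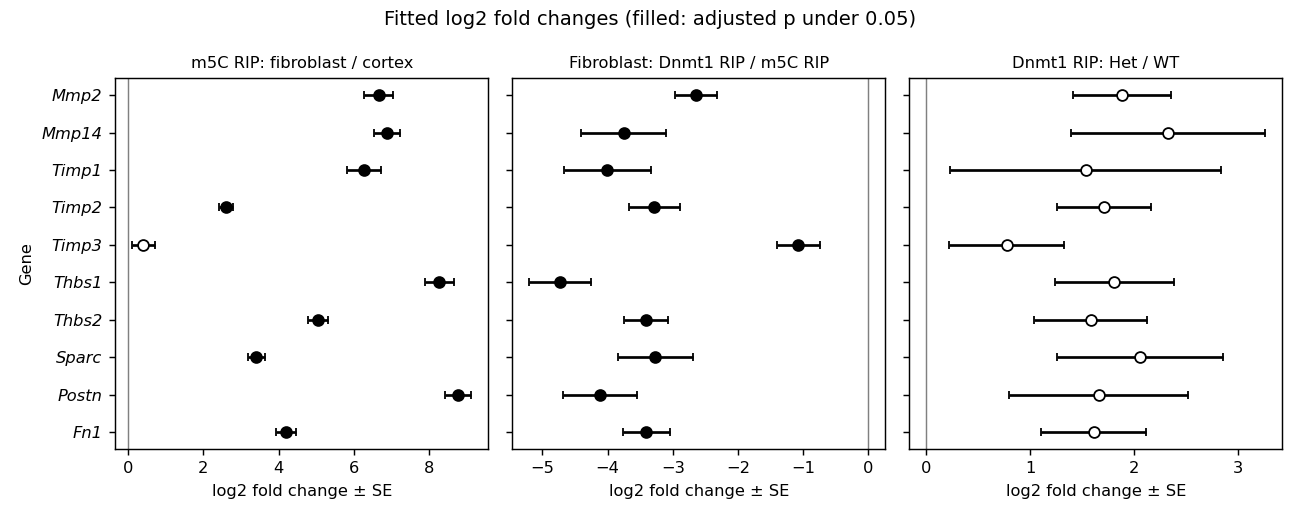
Fitted log2 fold changes (points) with their standard errors (bars) for the 10 genes in 3 comparisons; filled points have an adjusted p under 0.05. Fibroblast m5C RIP exceeds cortex by 2.60 to 8.76 for 9 genes, all 10 are lower in Dnmt1 RIP than in m5C RIP, and no Het difference is filled.

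Other genes of matrix turnover were counted from lists chosen by name, and their counts stand against 33% of all genes called higher and 30.9% lower. Of 11 further metalloproteinases tested, 7 were higher in fibroblasts and 4 lower; Mmp3 (stromelysin) had a log2 fold change of 10.19 ± 0.58, Mmp13 of 6.86 ± 0.57 and the membrane-anchored Mmp17 of -2.98 ± 0.22. Of 32 other matrix proteases, 19 were higher and 3 lower, with Adamts5 (an aggrecanase), the lysosomal cathepsin Ctsl and the plasminogen activator Plau at 5.70 ± 0.25, 3.94 ± 0.20 and 5.97 ± 0.36. Of 10 protease inhibitors and enhancers, 6 were higher and 2 lower, led by the collagen chaperone Serpinh1 (6.02 ± 0.26), Pcolce (5.92 ± 0.26) and Serpinf1 (8.25 ± 0.37). Of 24 other matricellular genes, 14 were higher and 8 lower, among them Spp1 (osteopontin, 8.61 ± 0.31), Thbs4 (7.02 ± 0.34) and Cyr61 (6.18 ± 0.31). Of 26 matrix receptors, 17 were higher and 2 lower, with Cd63 (4.92 ± 0.24), Mrc2 (4.29 ± 0.23) and the fibronectin receptor subunit Itga5 (4.29 ± 0.26) in front.

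The antibodies were compared within fibroblasts, with 6 Dnmt1 and 4 m5C libraries and genotype in the fit. The Dnmt1 RIP came from formaldehyde-fixed cells and m5C RIP from selected messenger RNA. Antibody and preparation therefore cannot be told apart in this comparison. All 10 genes were lower in the Dnmt1 RIP (edgeR, adjusted over 17124 genes), where 22.6% of all genes were called lower and 17.5% higher; their median log2 fold change was -3.41 against 0.22 for all genes. That split of the calls depends on scaling: 43.7% of calls were higher in the Dnmt1 RIP with TMM factors, 50.3% with RLE size factors and 64.6% with total counts alone, which moved the median of all genes by 0.13 and 0.36. The sign of every member was negative under each.

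Thbs1 had the largest difference, at 25.3 to 415 CPM in the Dnmt1 RIP (median 132) against 1899 to 3952 in m5C RIP (-4.73 ± 0.47, adjusted p = 1.12e-05). Postn (-4.12 ± 0.57), Timp1 (-4.01 ± 0.67), Mmp14 (-3.76 ± 0.65), Thbs2 (-3.41 ± 0.33), Fn1 (-3.41 ± 0.37), Timp2 (-3.28 ± 0.39), Sparc (-3.27 ± 0.57) and Mmp2 (-2.65 ± 0.32) followed. No Dnmt1 RIP library reached the lowest m5C library for any of these 9. Timp3 was the member closest between antibodies, at 29.1 to 78.6 CPM in the Dnmt1 RIP against 37.2 to 128 (-1.07 ± 0.33, adjusted p = 0.0181). The Timp3 call was lost with total counts alone (-0.72) and with the first Dnmt1 RIP libraries alone (-0.54), and also without 1 of 4 libraries: Dnmt1 RIP WT 1 (-0.96) or WT 2 (-0.93), fibroblast m5C WT 2 (-0.70) or Het (-0.99). With the Hom counts taken out of fibroblast m5C WT library 1 all 10 were called.

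The synapsin genes around Timp1 and Timp3 went the other way: Syn1 was higher in the Dnmt1 RIP (1.32 ± 0.26, adjusted p = 0.00106), as was Syn3 (1.17 ± 0.41, adjusted p = 0.0350). Summed neuron markers were higher in the Dnmt1 RIP than in m5C RIP too, and summed fibroblast markers lower, as given above; their part in the difference between antibodies was not tested. Of the same lists, against 22.6% of all genes called lower and 17.5% higher, 5 metalloproteinases were lower and 4 higher of 16 tested, 14 and 7 of 32 other proteases, 5 and 1 of 10 inhibitors, 13 and 6 of 24 matricellular genes and 16 and 2 of 26 receptors. Among these Plau (-3.97 ± 0.34), Mmp3 (-3.88 ± 0.48), Fbln1 (fibulin, -2.89 ± 0.30), Serpinh1 (-3.63 ± 0.43) and the syndecans Sdc3 (-2.57 ± 0.25) and Sdc4 (-3.72 ± 0.37) were among the 3 smallest p of their lists.

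Whether the Dnmt1 mutation went with other levels of these RNAs in the Dnmt1 RIP was asked of 2 libraries per genotype. The estimate for Het over WT was positive for each of the 10 genes, but none passed the test: edgeR called 0% of 13589 genes, with 0.732 as the smallest adjusted p and 868 genes at an unadjusted p under 0.05. DESeq2 called 26, no member among them, and gave no adjusted p for 11592 genes, 4 members among them. The median log2 fold change of the members was 1.68 against 0.03 for all genes, of which 51.6% had a positive estimate. Leaving out 1 library moved that median from 1.33 (without Het library 2) to 2.34 (without WT library 2), Sparc from 1.36 to 3.28 and Fn1 from 1.18 (without WT library 1) to 2.38. At an unadjusted p under 0.05, 7 of 10 members were higher, against 4.43% of all genes. In 6 of 10 both Het libraries lay above both WT libraries, against 15.3% of all genes. The 10 genes were chosen with earlier results of these data known, so these shares describe the set and do not test it.

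These 6 came from each role. Mmp2 measured 27.6 and 25.9 CPM (WT), 82.3 and 109 CPM (Het) and 11.7 and 39.6 CPM (Hom) (log2 fold change of Het against WT 1.88 ± 0.47, adjusted p = 0.732 in edgeR). Timp2 measured 198 and 132 CPM (WT), 447 and 553 CPM (Het) and 63.1 and 202 CPM (Hom) (1.71 ± 0.45). Fn1 measured 96.7 and 164 CPM (WT), 395 and 381 CPM (Het) and 61.2 and 156 CPM (Hom) (1.61 ± 0.51). For these 3 genes the lowest Het library was over 2 times the highest WT library, and the Hom libraries overlapped or spanned the WT range. The 4 dominant genes took 63.5% of Hom library 1, which lowers the CPM of its other genes, here and below. Without them Mmp2 was at 14.9 and 16.7% (WT) and 15.3 and 21.8% (Hom) of its mean fibroblast m5C level.

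Thbs1 measured 96.7 and 123 CPM (WT), 415 and 302 CPM (Het) and 25.3 and 140.2 CPM (Hom) (1.81 ± 0.57). Thbs2 measured 32.2 and 15.1 CPM (WT), 41.8 and 89.5 CPM (Het) and 10.7 and 26.4 CPM (Hom) (1.58 ± 0.54), from as few as 7 counts in a WT library. Sparc measured 180 and 464 CPM (WT), 682 and 2274 CPM (Het) and 70.9 and 575 CPM (Hom) (2.05 ± 0.80). The Het libraries were again the 2 highest of the 6 for each of these genes, and for Sparc the second library of each genotype was over 2 times the first.

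In the other 4 the Het and WT libraries overlapped. Mmp14 measured 36.8 and 97.2 CPM (WT), 82.3 and 718 CPM (Het) and 16.5 and 181 CPM (Hom) (2.33 ± 0.94). Postn measured 13.8 and 90.7 CPM (WT), 58.9 and 350.4 CPM (Het) and 9.71 and 64.6 CPM (Hom) (1.66 ± 0.86). Timp1 had 0 counts in WT library 1, which allows up to 13.8 CPM, and 21.6 CPM in WT library 2, then 6.14 and 82.0 CPM (Het) and 1.94 and 54.3 CPM (Hom) (1.53 ± 1.30). Timp3 measured 59.9 and 32.4 CPM (WT), 78.6 and 58.4 CPM (Het) and 29.1 and 31.6 CPM (Hom) (0.77 ± 0.55). These estimates rest on single libraries: without Het library 2 that of Mmp14 was 0.52, of Postn 0.31 and of Timp1 -0.79, while that of Timp3 was 1.23, and 38 genes but no member were called. Without WT library 2 Mmp14 was at 3.61 and Postn at 4.07, and Timp3 was at 0.28 without Het library 1. Without the filter on low counts, Mmp14 (2.47) and Sparc (2.18) were called higher in Het.

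**Figure D3:**
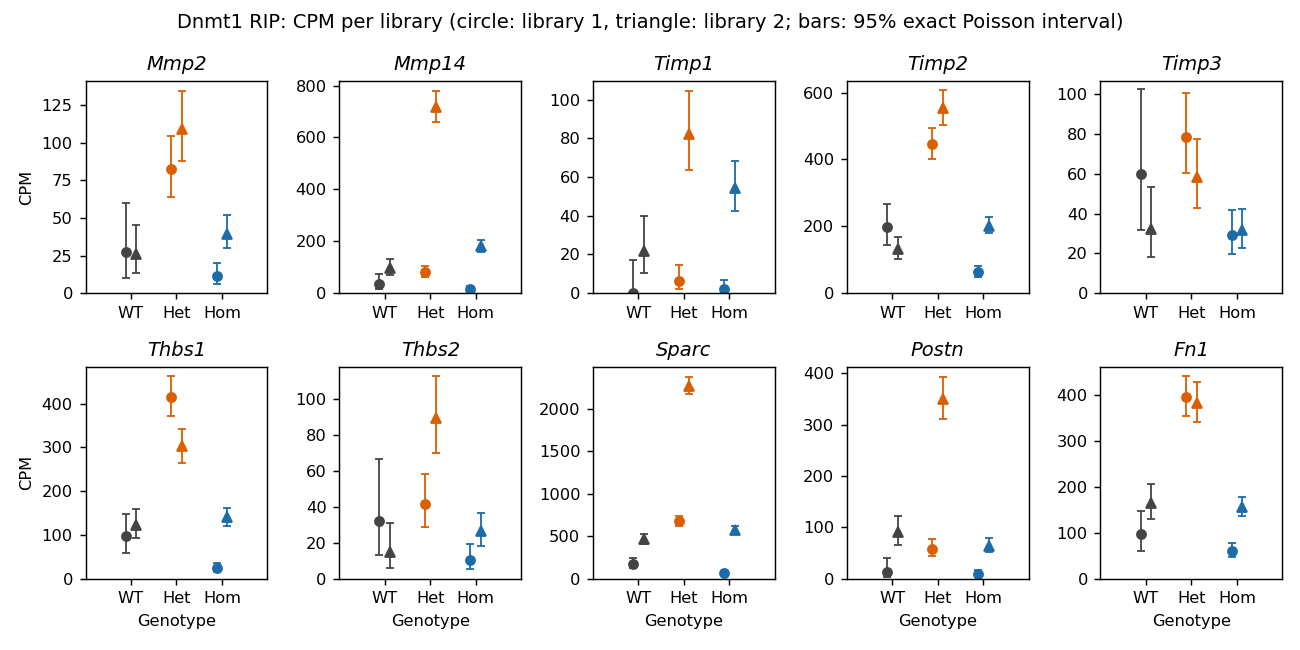
CPM of the 10 genes in the Dnmt1 RIP by genotype, 1 panel per gene with its own axis from 0; circles are library 1, triangles library 2, and bars are 95% exact Poisson intervals of the count. Both Het points lie above both WT points for Mmp2, Timp2, Thbs1, Thbs2, Sparc and Fn1, and for Mmp14, Timp1, Postn and Sparc the triangle lies above the circle in every genotype.

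Markers moved with the genotype as well. Summed fibroblast markers were at 952 and 2436 CPM (WT), 22456 and 8658 CPM (Het) and 1348 and 3000 CPM (Hom), so both Het libraries were highest there too; at most 1 of the 10 markers was at 0 in a library. Collagens carry this sum: Col1a1 was at 152 and 713 CPM of all gene counts (WT) and 10487 and 3818 (Het), whereas Pdgfra was at 50.7 and 60.5 (WT) and 50.4 and 58.4 (Het), Thy1, Vim and Dcn overlapped between WT and Het, and Lum was lower in Het. Summed neuron markers were lowest in the Het libraries, at 3642 and 3468 CPM against 5704 and 3874 (WT) and 5197 and 3740 (Hom). Astrocyte markers (6 genes) showed the same order, at 1570.5 and 1567 (Het) against 2624 and 1782 (WT) and 2350 and 1811 (Hom). Oligodendrocyte markers (6 genes) overlapped between Het and WT, at 1337 and 1457 (Het) against 2345 and 1452 (WT) and 2060 and 1628 (Hom). Summed macrophage markers were at 181 and 547 CPM (WT), 217 and 2260 CPM (Het) and 231 and 651 CPM (Hom). The part of these in the Het values was not tested. Other lists gave no call. At an unadjusted p under 0.05, reached by 4.43% of all genes in the higher and 1.96% in the lower direction, 9 of 31 other proteases were higher and 1 lower (Htra1 5.60 ± 1.42, Furin 2.12 ± 0.57, Adam15 1.84 ± 0.50), 0 of 7 further metalloproteinases, 4 of 9 inhibitors (Serpinh1 1.92 ± 0.55), 6 of 24 matricellular genes (Tnc 3.10 ± 0.86) and 6 of 25 receptors (Mrc2 2.33 ± 0.53, Itgb5 2.55 ± 0.62) higher and none lower.

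Hom libraries gave no call against WT in the same test: edgeR called 0 genes (0%; 309 with an unadjusted p under 0.05), DESeq2 called 0, and 0 of 10 members had an unadjusted p under 0.05 against 2.27% of all genes. The members' median log2 fold change was 0.04, from -0.50 ± 0.87 (Postn) to 1.11 ± 1.31 (Timp1). That median ran from -0.63 without Hom library 2, where 2 members had a positive estimate, to 0.64 without WT library 2, where 7 had. In CPM, both Hom libraries lay below both WT libraries for 1 member, Timp3 (19.3% of all genes), and above for none (3.7% of all genes). CPM of Hom library 1 are lowered by the 4 dominant genes, as given above. Without them Timp3 overlapped, at 75.0 and 48.4% (WT) and 88.9 and 40.3% (Hom) of its mean fibroblast m5C level. Its fitted estimate with TMM factors was 0.03. The members' standard errors, 0.44 to 1.31, leave room for differences as large as the medians above in either direction. With total counts alone, which moved the median of all genes by -0.39, 3 members rather than 8 had a positive estimate (51% of all genes with TMM factors).

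Hom against Het uses the same Het and Hom libraries, so it is no separate evidence. Again edgeR called 0 genes (0%; 629 with an unadjusted p under 0.05) and DESeq2 called 15, no member among them; 7 of 10 members had an unadjusted p under 0.05 and a lower value in Hom, against 3.3% of all genes, and in 7 both Hom libraries lay below both Het libraries (20.1% of all genes). The smallest p belonged to Mmp2 (-1.63 ± 0.43), Timp2 (-1.68 ± 0.45) and Thbs1 (-2.05 ± 0.57), each with adjusted p = 0.988. Without the filter on low counts, Postn (-2.21) and Thbs1 were called lower in Hom.

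The 2 Dnmt1 RIP libraries of a genotype differed in composition, and did so alike for some members. Of the counts of Mmp14 and Timp2 together, Mmp14 took 15.7% (WT), 15.5% (Het) and 20.7% (Hom) in the libraries titled 1 and 42.5%, 56.5% and 47.2% in those titled 2. The fibroblast m5C libraries gave 38.1 to 53.6%, which overlaps the second libraries and lies above the first, and the cortex m5C libraries 2.87 to 5.31%. Such a share does not depend on the rest of a library.

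Timp1 took 0%, 1.36% and 2.99% of the Timp1 and Timp2 counts in the first Dnmt1 RIP libraries and 14.1%, 12.9% and 21.2% in the second, against 11.4 to 25.3% in fibroblast m5C RIP. The 0 rests on 0 of 43 counts, with an exact upper bound of 8.22%. Postn took 12.5 to 13.7% of the Postn and Fn1 counts in the first libraries and 29.2 to 47.9% in the second, and Sparc took 47.6 to 60.4% and 74.0 to 80.4% of the Sparc and Timp2 counts. Mmp2 did not follow: its share of Mmp2 and Timp2 was 12.2 to 15.6% in the first and 16.4 to 16.5% in the second libraries.

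On the log2 scale, the second library exceeded the first by 2.50 (WT), 2.54 (Het) and 2.48 (Hom) for Postn, and by 3.30 (Het) and 3.68 (Hom) for Timp1, whose count of 0 in WT library 1 gives no such value, while the median of all genes moved by -0.30, 0.47 and 1.09. Timp3 moved by -0.85, -0.40 and 0.13. These values were picked after they were seen and are a description with no test. They use no TMM factors and keep the 4 dominant genes in the totals. Without those genes, Postn in libraries 1 and 2 stood at 1.53 and 12.0% (WT), 7.91 and 36.6% (Het) and 2.62 and 7.29% (Hom). These are percent of its mean fibroblast m5C level, so the likeness of its log2 values between genotypes depends on the scale. The number in a title is not said to mark a shared day or culture. Summed macrophage markers were likewise higher in the second library of each genotype, as given above, and their part was not tested.

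**Figure D4:**
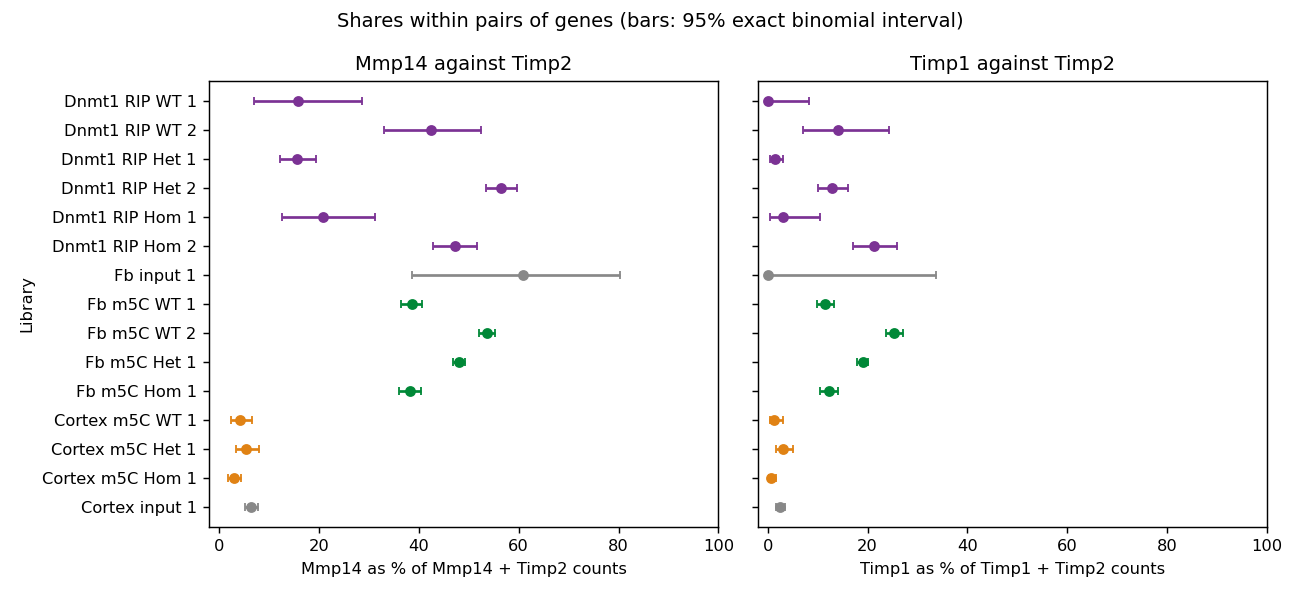
Share of Mmp14 (left) and of Timp1 (right) in the counts of that gene and Timp2, in percent, for each of the 15 libraries; bars are 95% exact binomial intervals (purple Dnmt1 RIP, green fibroblast m5C RIP, orange cortex m5C RIP, grey inputs). Dnmt1 RIP libraries titled 2 lie at 42.5 to 56.5% for Mmp14 and those titled 1 at 15.5 to 20.7%.

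In fibroblast m5C RIP the mutant libraries gave no call for these genes. The mutant tables, unlike the WT tables, also carry rows of reads assigned to no gene. A difference in counting could thus not be told apart from genotype here. The WT pair gave the fit its 1 residual degree of freedom, and edgeR called 4 of 12273 genes for Het (0.0326%) and 1 for Hom (0.00815%), none a member; DESeq2 called 0 in both. All 10 members had a positive estimate for Het (median 0.18), against 48% of all genes, and 1 for Hom (median -0.29), against 49%. The medians were 0.02 and -0.60 without WT library 1, 0.79 and 0.06 without WT library 2, and 0.49 and -0.13 with the Hom counts taken out of WT library 1, so the signs turned for up to 6 members. The smallest p for Het was that of Fn1, 2749 CPM against 927 and 1414 in WT (1.14 ± 0.53, edgeR adjusted p = 1.00). For Hom it was Timp3, 37.2 CPM against 51.3 and 117 (-1.28 ± 0.46, edgeR adjusted p = 1.00). Both estimates use WT library 1, which holds the Hom counts within its own: without it Fn1 was at 0.91 and Timp3 at -1.74, and with the Hom counts taken out of it at 1.13 and -1.83.

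Whether a genotype difference itself depended on the antibody was tested as an interaction. No gene was called for Het or Hom (0% of 17124; 573 and 203 with an unadjusted p under 0.05), and DESeq2 called 0 in both. Mmp2 had the smallest p for Het (1.75 ± 0.73, edgeR adjusted p = 1.00). It was the 1 of 10 members with an unadjusted p under 0.05 against 2.47% of all genes in that direction. Timp3 had the smallest for Hom (1.36 ± 0.85, edgeR adjusted p = 1.00). Without fibroblast m5C WT library 1 these estimates were 1.98 (Mmp2) and 1.83 (Timp3), and with the Hom counts taken out of it 1.46 and 1.80. No difference between antibodies in the genotype estimates was thus separable from the error.

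Cortex has 1 library per genotype, so no test was made. Timp2 stood at 284 (WT), 273 (Het) and 281 (Hom) CPM, with 277 in input. Sparc stood at 298, 442 and 377 CPM against 281 in input, and Fn1 at 81.6, 105 and 81.0 against 94.6. On the log2 scale the cortex m5C libraries lay -0.23 to 0.14 from input for Fn1, 0.09 to 0.65 for Sparc and -0.02 to 0.03 for Timp2. Most other members had too few counts in cortex for a finer reading: Mmp2 had 7, 1 and 2.

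Inputs gave little to measure against in fibroblasts, and fibroblast input also held neuron markers, as given above. Fibroblast input had 0 counts for Mmp2, Timp1, Timp3 and Thbs2, which allows up to 13.1 CPM, or 31.5 CPM without the 4 dominant genes. On the latter scale 5 of 6 Dnmt1 RIP libraries lay above that limit for Mmp2, 6 for Timp3, 3 for Thbs2 and 2 for Timp1. The limit covers counting error only. Fibroblast input detected 6006 genes from 228852 gene counts, while Dnmt1 RIP WT library 1 detected 17858 from 217173. A count of 0 in this input may therefore not bound the level of a gene. Of the members with counts, Timp2 had 39.3 CPM in input from 9 counts (Dnmt1 RIP over input 1.45 ± 0.64, adjusted p = 0.152) and Fn1 39.3 CPM (1.19 ± 0.69, adjusted p = 0.247), while Sparc stood at 380.2 CPM, inside the Dnmt1 RIP range of 70.9 to 2274. The median log2 fold change of the 10 members was 1.32, against 5.39 for all genes, so the members lay below the typical gene. A positive estimate was found for 9 members and for 82.8% of all genes. No member was called in edgeR over 16558 genes, of which 4.99% were called. At an unadjusted p under 0.05, 4 members were higher (Mmp2, Timp3, Thbs2 and Timp2), against 23.8% of all genes. For Mmp2, Timp3 and Thbs2 the input count was 0, so their estimates rest on no measured input level. DESeq2 called no member either, but gave no adjusted p for 14446 genes, 4 members among them. Of all edgeR calls, 66.3% were higher in the Dnmt1 RIP with TMM factors, 56.3% with RLE size factors and 95.7% with total counts alone.

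Over both tissues, m5C RIP against input called no member (edgeR over 14501 genes, 0.0552% called; 0 members with an unadjusted p under 0.05, against 5.43% of all genes, DESeq2 0). All 10 had a positive estimate, as had 66.5% of all genes. The result rests on which input is used: without cortex input all 10 members and 5816 genes were called, and without fibroblast input none, with a median of -0.46 over the members. Fibroblast input detected 6006 genes from 228852 gene counts, against 21977 from 4913482 in cortex input.

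Last, each gene was matched to the 1 other gene whose centred log2 CPM differed least from its own over the 15 libraries, among 8640 genes of at least 20 CPM on average. The nearest were Tnfaip2 to Mmp2 (mean absolute difference 0.42), Fkbp10 to Mmp14 (0.38), Itgam to Timp1 (0.56), Cxcl12 to Timp2 (0.24) and Stk24 to Timp3 (0.29). Serpinf1 was nearest to Thbs1 (0.51), Kdelr2 to Thbs2 (0.32), Bag3 to Sparc (0.40) and Gpc4 to Fn1 (0.28). None of the 10 had another member as its nearest gene; Sparc and Fn1 were closest to each other among members (0.58), and Timp3 was farthest from the rest, at 1.08 from Timp2. The libraries of a tissue or antibody share depth and preparation, so these values describe likeness and are not tested.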

How the data were processed

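The authors deposited raw counts per gene symbol, 1 table per library, for 15 libraries, which the titles place in 11 groups. Per the submitters' processing notes, Trim Galore 0.4.1, HISAT2, featureCounts and the mm10 build were used; the annotation and strand setting of the counting were not stated. Per the labels' protocols, m5C RIP started from 1 µg of bead-selected mRNA, and both rRNA depletion and polyA enrichment were used. Tables of 6 libraries also carry 5 rows of reads assigned to no gene, kept out of totals and tests. These are fibroblast m5C Het and Hom, the cortex m5C libraries and cortex input. In them 63.2 to 89.5% of reads had not aligned and 3.79 to 10.1% were assigned to genes. The fibroblast m5C WT, Dnmt1 RIP and fibroblast input tables lack these rows. Whether their counting differed is not stated. Such a difference could not be told apart from genotype in fibroblast m5C RIP, and only in part from tissue or antibody. Gene counts ranged from 217173 to 4913482 per library. Intervals are 95% exact and cover counting error only, and a count of 0 was taken to allow 3 counts.

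Symbols were matched to GENCODE M21 (30464 of 31017) for coordinates and exon lengths. Tests used edgeR 4.0.16 (limma 3.58.1, R 4.3.3) on the whole table, with filterByExpr at a minimum count of 10 and total of 15, then TMM normalization, glmQLFit, glmQLFTest and Benjamini-Hochberg adjustment at 0.05. SE is the absolute log2 fold change over the root of the F statistic. The Dnmt1 RIP fit had 3 residual degrees of freedom and a common biological coefficient of variation of 0.424. Alternatives comprised RLE factors, total counts, no filter, DESeq2 1.42.0, single libraries left out, a replicate block, 4 dominant genes removed, and the Hom counts subtracted from fibroblast m5C WT library 1. After seeing the data, the first or second Dnmt1 RIP libraries alone were added, as was a spread from the Dnmt1 RIP pairs where a fibroblast m5C WT library is left out. The fits were tested on simulated data.

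The 10 genes, the gene lists and the comparisons were chosen with earlier results of these data known. Named are the 10 genes, up to 3 genes of smallest p per list in a comparison, the overlapping genes Syn1, Syn3 and Cep295nl, and the nearest gene to each member, except that of Postn, which is not reported here. Tables and plots were made in Python 3.11.15 (SciPy 1.17.1, pandas 2.3.3, numpy 2.4.6, matplotlib 3.10.9).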

Additional observations from a re-analysis of the deposited data

How the results depend on the processing

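In the tissue and antibody comparisons all 10 members kept their direction under every alternative run, and calls changed for Timp3 alone, as given above. Taking the Hom counts out of fibroblast m5C WT library 1 left 5993 genes called between tissues, against 9075, and 4205 between antibodies, against 6882.

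Among genotypes the counts of genes called depended on the filter and the tool. For Het against WT in the Dnmt1 RIP, with 0 genes called, no filter on low counts gave 192 genes and 2 members (Mmp14 and Sparc), DESeq2 gave 26 and leaving out 1 library 0 to 38. For Hom against WT, no filter gave 13 and total counts alone 2. For Hom against Het, no filter gave 113 genes and 2 members (Postn and Thbs1), DESeq2 15 and leaving out 1 library 0 to 35. In fibroblast m5C RIP, Het against WT called 4 genes, but 2 with total counts alone or no filter, 0 with DESeq2 or the Hom counts taken out, and 0 to 5 with 1 library left out; Hom against WT called 1, but 2 without the 4 dominant genes, 0 with DESeq2 or the Hom counts taken out, and 0 to 1 with 1 library left out. The interactions gave 12 (Het) and 1 (Hom) without a filter, and 0 to 6 for Het with 1 library left out. No member was called in any of these other than as named, and DESeq2 gave no adjusted p for some members, as given above. The causes were not tested.

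Against fibroblast input, 827 genes became 1335 with total counts alone, 1944 without a filter, 265 with DESeq2 and 0 to 850 with 1 Dnmt1 RIP library left out, with 1 member, Timp3, called in each of the first 2 settings; its input count is 0. For m5C RIP against input, 8 became 37 with RLE size factors, 2 with total counts alone, 211 without a filter, 185 with DESeq2, 47 with the Hom counts taken out, and 2 to 5816 genes and 0 to 10 members with 1 library left out. No value could be had without the fibroblast input, or without a lone Het or Hom m5C library, for the comparisons that need it.

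Among the members whose Dnmt1 RIP estimates are given above, Timp1 changed sign for Het against WT (-0.79 to 7.95) with 1 library left out. For Hom against WT, Timp1 (-1.67 to 7.52), Postn (-1.52 to 1.89) and Timp3 (0.03 with all libraries) did so. Timp3 turned sign without WT library 2 or without Hom library 1, and also with the replicate block. Timp1 has 0 counts in Dnmt1 RIP WT library 1, so the upper values, without WT library 2, are no bound. Of all 10 members for Hom against WT, 3 to 6 turned sign with any 1 WT or Hom library left out, as did up to 5 in the Hom interaction, whose median ran from -0.38 to 1.15.

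The replicate number was tried as a block in the Dnmt1 RIP, although nothing in the labels says that it marks a shared day or culture. The differences between library 2 and library 1 correlated across 13589 genes at r = -0.004 between WT and Het, 0.20 between WT and Hom and 0.05 between Het and Hom. With the replicate block 0 genes were called for Het against WT, with a members' median of 1.82, 0 for Hom against WT (0.05) and 0 for Hom against Het (-1.67). The antibodies compared in the WT libraries alone with the replicate block gave 3056 genes and 9 members called, Timp3 being the exception (-1.11). Depth limits the low members most: a count of 0 allows up to 13.8 CPM in Dnmt1 RIP WT library 1.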
